A study of Mus musculus with 4 samples.

Results

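Integrins, laminins and the basement membrane linkers were followed in FAP+ cells sorted from mouse pancreatic ductal adenocarcinoma and split by CD34. The genes were chosen by name from the deposited table of read counts per gene: every integrin alpha or beta subunit, every laminin chain, the nidogen genes Nid1 and Nid2, the perlecan gene Hspg2 and the agrin gene Agrn. They came to 43 of 22609 genes, namely 18 integrin alpha subunits, 9 beta subunits, Itgbl1, 11 laminin chains and 4 linkers. Itgbl1 fits the name pattern, but it encodes a secreted protein that resembles part of a beta subunit and is no receptor chain. The FAP+ CD34+ fraction and the FAP+ CD34- fraction had 2 libraries each, all from a spontaneous model of the tumour on the C57BL/6 background. FAP (fibroblast activation protein) is a surface protease of tumour stroma, and CD34 is a sialomucin found on blood progenitors, on endothelium and on part of the stroma. The labels name no treatment, age, sex or number of animals behind a library, and both groups share the FAP gate and the tumour model. The titles call the libraries biological replicates; nothing else says that they came from separate animals, so the p-values measure only the spread between these libraries.

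Integrins are receptors made of 1 alpha and 1 beta subunit, which bind matrix outside the cell and couple it to actin through talin and kindlin inside. Laminins are trimers of an alpha, a beta and a gamma chain that form the network of the basement membrane. Nidogen and perlecan link that network to collagen IV, and agrin ties it to dystroglycan on the cell surface. Fibroblasts are known for receptors of fibronectin and fibrillar collagen, while receptors with the beta4 subunit and laminins with the alpha3 and beta3 chains are typical of epithelium.

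Levels are given as CPM (the count of a gene scaled to the library total), in the order CD34+ replicates 1 and 2, then CD34- replicates 1 and 2. Levels of different genes are compared only by the deposited RPKM, which also divides by gene length. Total counts ran from 10322354 to 14633561. Fold changes are on the log2 scale, CD34+ over CD34-, from edgeR's quasi-likelihood test over 13875 genes, with p adjusted by Benjamini-Hochberg. The sort was visible in its own transcript: Cd34 was 143 and 293 CPM against 18.3 and 23.9 CPM, while Fap was 79.0 and 39.8 CPM against 142 and 136 CPM. The 10 fibroblast markers summed to between 37472 and 41209 CPM in the 4 libraries, with the most counts in Col1a2. Of markers of other cells, epithelial ones summed to 910 and 580 CPM against 822 and 429 CPM. Myeloid ones summed to 279 and 165 CPM against 154 and 94.99 CPM. Pericyte ones came to 507 and 453 CPM against 633 and 738 CPM. Endothelial ones summed to 330.4 and 335 CPM against 263 and 348 CPM. Most of that endothelial sum was Eng, at 244 and 268 CPM against 222 and 304 CPM. In such bulk samples fewer cells of a type and less RNA per cell cannot be told apart.

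Of the 43 genes, 40 passed the filter on low counts. At an adjusted p of 0.05, edgeR called 0 of them higher and 0 lower in CD34+ cells, as it did over all genes (0.0% of 13875 in each direction). Without adjustment 7 of the 40 lay higher at p of 0.05, against a background of 9.81% of all genes, and 1 lay lower, against 6.65% (edgeR). The 7 were Itga5, Itga2b, Itgb4, Itgb7, Itgae, Itgax and Lamb2, and the 1 was Itga9. The filter asks for 0.744 CPM in 2 libraries. Itgax and Itgae reached that level in CD34+ libraries alone, and Itgb7 in both of these and 1 CD34- library, so 3 of the 7 passed the filter through the group where they were high, and nothing is read from the count of 7. The libraries of the groups did not overlap for 9 genes in the higher direction and 9 in the lower, each 22.5% of the 40, against 23.4% and 26.6% of all genes, so this share was close to the background in both directions. The 9 higher include Itgax, Itgae and Itgb7. Among the 9 lower is Itgb8, which reached the filter level in 2 CD34- libraries but in 1 CD34+ library. DESeq2 called Itga5 and Itgb4 higher and 0 lower, against 2.85% and 1.3% of all genes. The exact test of edgeR called Itga5 and Itgb7 higher and 0 lower, against 3.29% and 1.46%. The median log2 fold change of the 40 was 0.25, beside -0.02 over all genes. It includes Itgax, Itgae and Itgb7, so nothing is read from this median either. Without CD34+ replicate 1 the filter kept 41 of the 43, with a median of -0.039 beside -0.035 over all genes.

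**Figure D1:**
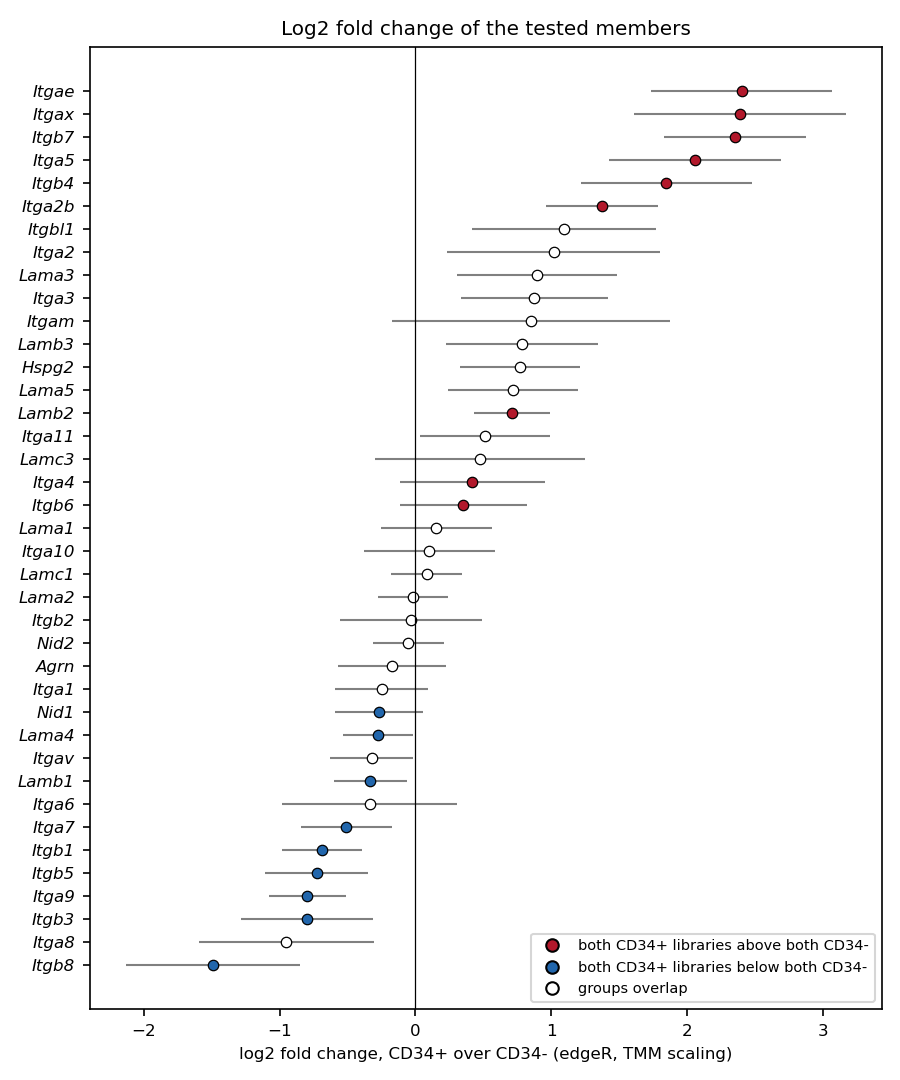
Log2 fold change (x axis, CD34+ over CD34-) of 39 of the 40 tested genes, with the standard error of the edgeR fit as bars. Filled points mark genes whose groups did not overlap in CPM, 9 in each direction; 0 passed the adjusted threshold.

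The receptor for fibronectin, alpha5beta1, showed its subunit transcripts in opposite directions. Itga5, the alpha subunit that binds the RGD motif of fibronectin, was at 1128 and 305 CPM in CD34+ libraries and at 214 and 139.7 CPM in CD34- libraries. Both CD34+ libraries lay above both CD34- libraries, and CD34+ replicate 1 lay far above the other 3. The means were 716 ± 582 against 177 ± 52.4 CPM (SD, n = 2), which edgeR fitted as 2.06 on the log2 scale (SE 0.63, adjusted p = 0.230). Without CD34+ replicate 1 that change was 0.79. By the deposited FPKM, a second set of length-scaled values of the authors, Itga5 was 100.5 and 34.2 against 35.6 and 25.3, so on that scale the groups overlapped. Its change on the log2 FPKM scale was 0.95, where the median over all genes was -0.31. Itgb1, the beta subunit shared by the largest group of integrins, was 604 and 606 CPM in CD34+ against 967 and 1007 CPM in CD34- libraries. The replicates lay close together (605 ± 1.78 against 987 ± 28.2 CPM, SD, n = 2) and the groups did not overlap, but the test did not pass (log2 fold change -0.69, SE 0.29, adjusted p = 0.316, edgeR). Within a library, the RPKM of Itga5 was 1.79 times that of Itgb1 in CD34+ replicate 1, 0.483 times in CD34+ replicate 2, and 0.213 and 0.133 times in the CD34- libraries.

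Because the subunits of this receptor lay in opposite directions, their start regions are shown side by side. Each runs from 250 bases before to 50 bases after the RefSeq gene start (build GRCm38.p6), 5′ to 3′ on the strand of the gene. Itga5 is at chr15:103366742-103367041 on the minus strand and Itgb1 at chr8:128685404-128685703 on the plus strand. Capitals mark matches on either strand to the motifs searched.
Itga5: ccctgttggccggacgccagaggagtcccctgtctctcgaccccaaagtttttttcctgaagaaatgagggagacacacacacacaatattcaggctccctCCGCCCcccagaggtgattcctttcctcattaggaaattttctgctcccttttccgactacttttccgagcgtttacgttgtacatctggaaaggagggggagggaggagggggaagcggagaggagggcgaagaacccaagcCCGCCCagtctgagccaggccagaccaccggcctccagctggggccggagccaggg
Itgb1: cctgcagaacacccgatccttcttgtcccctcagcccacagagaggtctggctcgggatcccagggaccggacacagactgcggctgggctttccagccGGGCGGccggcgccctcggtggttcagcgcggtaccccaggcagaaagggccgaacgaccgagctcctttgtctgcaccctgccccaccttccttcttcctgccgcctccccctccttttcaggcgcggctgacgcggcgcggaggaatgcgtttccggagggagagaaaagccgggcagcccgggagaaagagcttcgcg
The motifs were the GC box GGGCGG, the CCAAT box CCAAT, the TATA box TATAAA, the AP-1 site TGANTCA and the CArG box, and no match overlapped another. The window of Itga5 held GGGCGG on the opposite strand, with the leftmost base at -149 and at -6 from the gene start. That of Itgb1 held GGGCGG on its own strand at -151, and neither held any of the other motifs. The background was 32851 RefSeq windows of this length, with a single chromosome left out. Of these, 35.7% held GGGCGG, 37.4% CCAAT, 13.6% TATAAA, 7.81% TGANTCA and 1.63% a CArG box.

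Of the other alpha subunits that bind RGD, Itgav and Itga8 overlapped between the fractions. Itgav, which pairs with several beta subunits and binds vitronectin, fibronectin and latent growth factor complexes, was 182 and 149.7 CPM against 176 and 241 CPM. This was a log2 fold change of -0.32 and a 95% interval from -1.07 to 0.42 (edgeR). The RPKM of Itga5 was 10.02 and 3.29 times that of Itgav in CD34+ libraries and 1.96 and 0.938 times in CD34- libraries. Itga5 thus made up 75.6% and 48.7% of the summed RPKM of the 18 alpha subunits in CD34+ libraries, and 36.9% and 26.0% in CD34- libraries. Itga8, an RGD-binding partner of beta1 in mesenchyme, was 1.84 and 3.44 CPM against 2.87 and 7.31 CPM.

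Itga2b, the alpha subunit of the platelet fibrinogen receptor, was 15.4 and 9.82 CPM against 5.83 and 4.10 CPM. The groups did not overlap (log2 fold change 1.37, SE 0.41, adjusted p = 0.230, edgeR). Platelet markers differed in level in the same libraries. Gp9 was 0, 0.147, 0 and 0 CPM, Ppbp between 0.0683 and 0.194 CPM, Pf4 between 0.137 and 1.45 CPM, and Gp1bb between 11.9 and 19.3 CPM. The 8 platelet markers summed to 23.5 and 14.2 CPM against 17.4 and 18.5 CPM, most of it from Gp1bb. The part of platelets in the level of Itga2b was not tested.

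Of the beta subunits that pair with alphav, Itgb5 and Itgb3 were lower in CD34+ libraries and Itgb6 was higher, and 0 passed. Itgb5, which with alphav forms a vitronectin receptor, was 706 and 761 CPM against 923 and 1508 CPM (log2 fold change -0.73, SE 0.38, adjusted p = 0.388, edgeR). Within CD34+ replicate 2 and both CD34- libraries it had the highest RPKM of the 43 genes, at 168, 229.8 and 396. In CD34+ replicate 1 Itga5 was higher, at 145 against 121 RPKM. It held 57.1% and 60.3% of the summed RPKM of beta subunits in CD34+ libraries and 53.2% and 64.7% in CD34- libraries. Itgb1 held 38.2% and 37.6% against 43.6% and 33.8%. The makeup of the beta family was thus much the same in all 4 libraries, with both main subunits at lower CPM in CD34+ cells. Itgb3, the beta subunit of the vitronectin receptor of vessels and osteoclasts, was 42.5 and 15.4 CPM against 60.4 and 42.8 CPM. Its groups were barely apart, since CD34+ replicate 1 and CD34- replicate 2 were nearly equal (log2 fold change -0.80, SE 0.49, adjusted p = 0.444, edgeR). Without CD34+ replicate 1 the change was -1.75, and without CD34+ replicate 2 it was -0.25. Itgb8, an activator of latent TGF-beta with alphav, was low at 1.94 and 0.733 CPM against 4.84 and 2.80 CPM, with no overlap (log2 fold change -1.49, SE 0.64, adjusted p = 0.317, edgeR). Without CD34+ replicate 1 this change was -2.36 and without CD34+ replicate 2 it was -0.94. Itgb8 reached the level of the filter in 2 CD34- libraries but in 1 CD34+ library, so nothing is read from its direction. The epithelial subunit gene Itgb6 was 3.20 and 3.15 CPM against 2.19 and 2.80 CPM (log2 fold change 0.35, SE 0.47). Its sign turned on the log2 RPKM scale, where the median over all genes was -0.31 or -0.42, depending on the pseudocount.

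**Figure D2:**
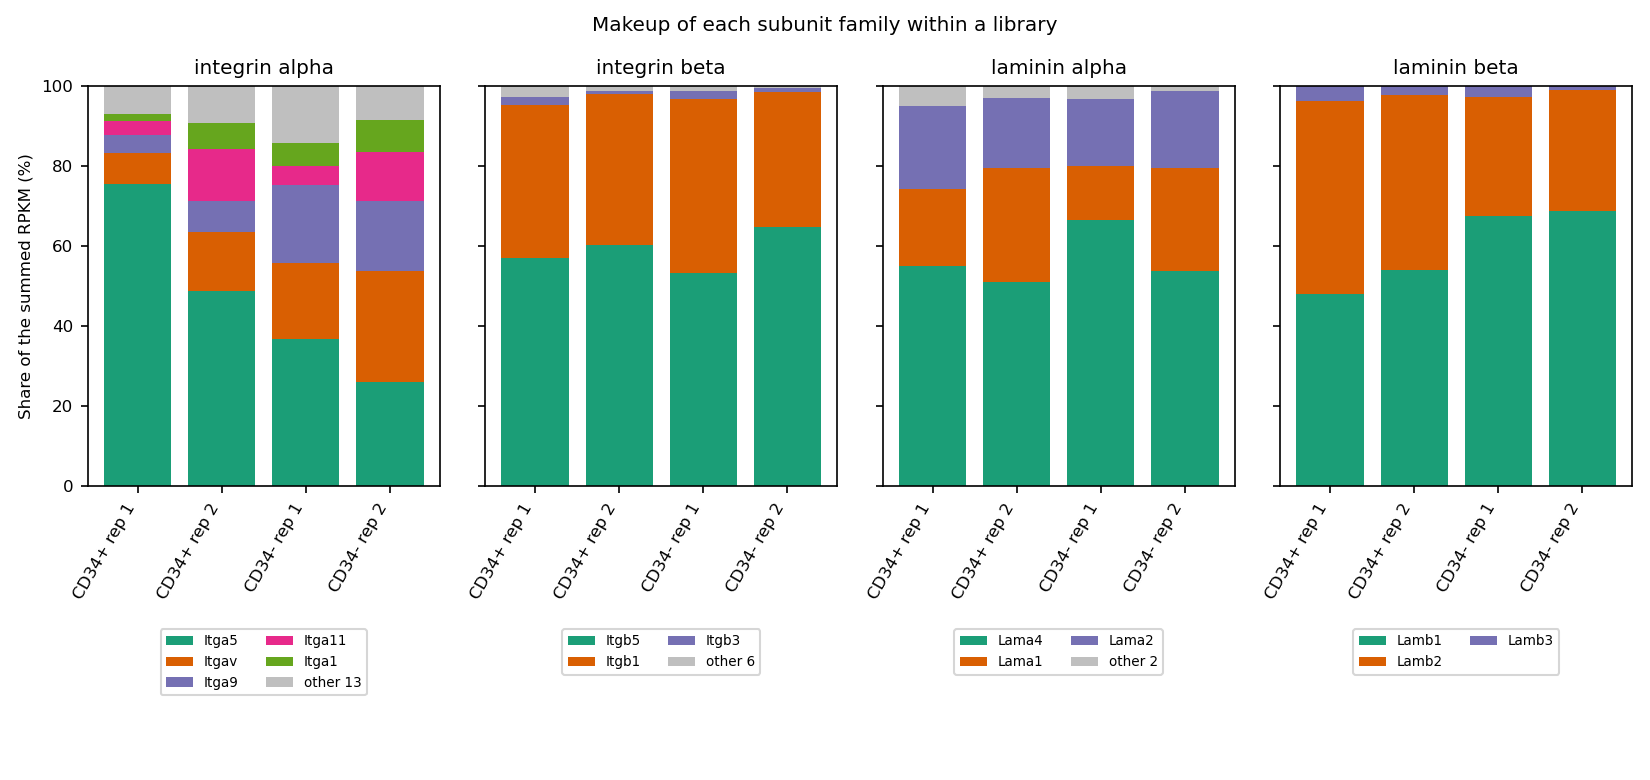
Share (y axis, %) of the summed deposited RPKM of a family taken by each subunit gene, in each library (x axis). Itga5 takes 75.6% of the alpha family in CD34+ replicate 1 and 26.0% in CD34- replicate 2, while Itgb5 and Itgb1 fill nearly all of the beta family in every library and the share of Lamb2 is larger in CD34+ libraries.

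Itga9, which binds tenascin-C, osteopontin and other ligands with beta1, had the smallest p of those lower in CD34+ cells. It was 111 and 78.4 CPM against 183 and 152 CPM, with no overlap (94.8 ± 23.1 against 168 ± 21.6 CPM, SD, n = 2). The change was -0.80 on the log2 scale, with SE 0.28 and adjusted p = 0.269 (edgeR). The RPKM of Itga5 was 16.3 and 6.23 times that of Itga9 in CD34+ libraries, but 1.88 and 1.47 times in CD34- libraries. Itga4, a receptor subunit for Vcam1 and fibronectin that leukocytes use, was near 2 CPM at most, at 2.13 and 2.05 CPM against 1.21 and 1.91 CPM.

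The 4 collagen-binding alpha subunits overlapped between the fractions. Itga11, the fibrillar collagen receptor typical of fibroblasts, was the most abundant of them by RPKM in 3 of 4 libraries and was 58.9 and 91.4 CPM against 30.6 and 73.8 CPM. In CD34- replicate 1 Itga1 was higher, at 6.19 against 5.07 RPKM. For Itga11 replicate 2 was the higher library in each fraction, and the log2 fold change of 0.51 had a 95% interval from -0.66 to 1.68 (edgeR). Itga1, which favours collagen IV, was 32.2 and 56.0 CPM against 45.3 and 59.7 CPM, again higher in replicate 2 of each fraction. Itga2, a collagen receptor of epithelium and platelets, ran the other way, at 16.4 and 4.91 CPM against 8.70 and 2.26 CPM. Itga10, a collagen II receptor of cartilage, was between 3.15 and 5.62 CPM in all libraries.

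**Figure D3:**
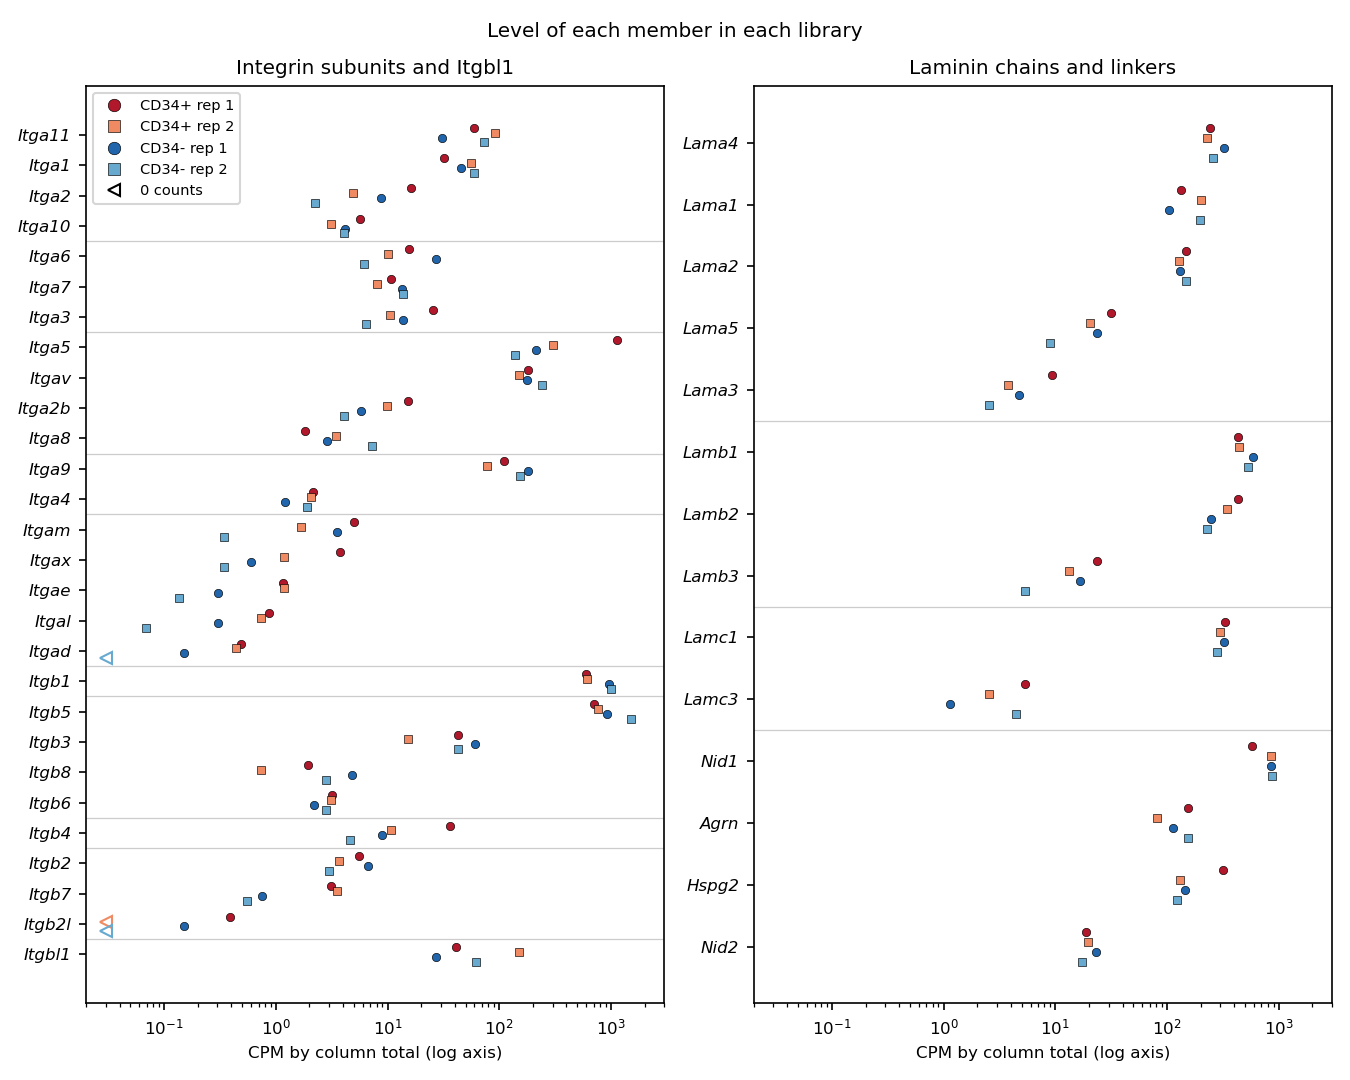
Level of 42 of the 43 genes (rows) in CPM by column total on a log axis, with 1 point per library and lines between roles. Itga5 in CD34+ replicate 1 stands at 1128 CPM, well right of the other 3 libraries, while Itgb1 and Lamb1 form a close pair of points per fraction.

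Among laminin receptors, Itga7, the subunit of muscle and mural cells, was 10.9 and 7.99 CPM against 13.4 and 13.7 CPM with no overlap (log2 fold change -0.51, SE 0.33, adjusted p = 0.476, edgeR). Some markers of pericytes were lower in the same libraries: Rgs5 was 2.13 and 7.33 CPM against 45.5 and 89.7 CPM, and Mcam 27.9 and 16.5 CPM against 103.3 and 103.1 CPM. Of the 9 pericyte markers, 5 lay lower without overlap and 0 higher, against 26.6% and 23.4% of all genes. The other 4 overlapped, 3 of them (Abcc9, Kcnj8 and Notch3) with a positive fold change, and the part of such cells in the level of Itga7 was not tested. Itgb4, which pairs with alpha6 in the hemidesmosome of epithelium, was 36.3 and 10.8 CPM against 8.93 and 4.58 CPM (log2 fold change 1.85, SE 0.63, adjusted p = 0.258, edgeR). Both CD34+ libraries lay above both CD34- libraries, yet CD34+ replicate 1 stood out, and without it the change was 0.69. Its partner Itga6 did not follow, at 15.5 and 10.04 CPM against 27.4 and 6.22 CPM (log2 fold change -0.34, 95% interval from -1.90 to 1.23, edgeR). Itga3, which pairs with beta1 as a laminin receptor, was 25.5 and 10.5 CPM against 13.8 and 6.42 CPM and overlapped.

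Lamb3 and Lama3, chains of epithelial laminins, overlapped between the fractions and were higher in replicate 1 of each. Lamb3 (beta3) was 23.5 and 13.3 CPM against 16.8 and 5.40 CPM, and Lama3 (alpha3) 9.30 and 3.81 CPM against 4.69 and 2.53 CPM. Their summed CPM in replicate 1 was 1.92 times that in replicate 2 of the CD34+ fraction, and 2.71 times in the CD34- fraction. Itga6 and Itgb4 together gave ratios of 2.48 and 3.36. Lama5, the alpha5 chain of epithelial and vessel basement membranes, was 31.4 and 20.3 CPM against 23.6 and 8.88 CPM, and like Itga2 and Itga3 it was higher in replicate 1 of both fractions. All 7 of these genes, singled out after their values were seen, had that order, as did 33.1% of 13824 tested genes with a count in every library. It was not particular to them, since Itga5, Itga9, Itgb3, Lama4, Lamb2, Lamc1 and Hspg2 had it too. Itga11, Itga1, Itga8, Itgb1, Itgb5, Lama1, Nid1 and Itgbl1 had the reverse order. Both replicate 1 libraries lay above both replicate 2 libraries for 12 of the 40 tested genes (30%), against 18.4% of all genes. The summed epithelial markers had ratios of replicate 1 over replicate 2 of 1.57 in CD34+ and 1.92 in CD34- libraries. Epcam was 49.7 and 16.9 CPM against 10.1 and 18.6 CPM, and Krt19 133 and 89.5 CPM against 112 and 58.9 CPM; 0 of the 10 epithelial markers were at 0 in any library. Mesothelial and myeloid markers had ratios of 1.70 and 1.68 in CD34+ and 1.57 and 1.62 in CD34- libraries. Krt19 is counted in both the epithelial and the mesothelial list. Wt1, the most abundant mesothelial marker, was 206 and 120 CPM against 57.7 and 79.3 CPM, so replicate 2 was the higher library in the CD34- fraction. The part of such cells in these levels was not tested.

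**Figure D4:**
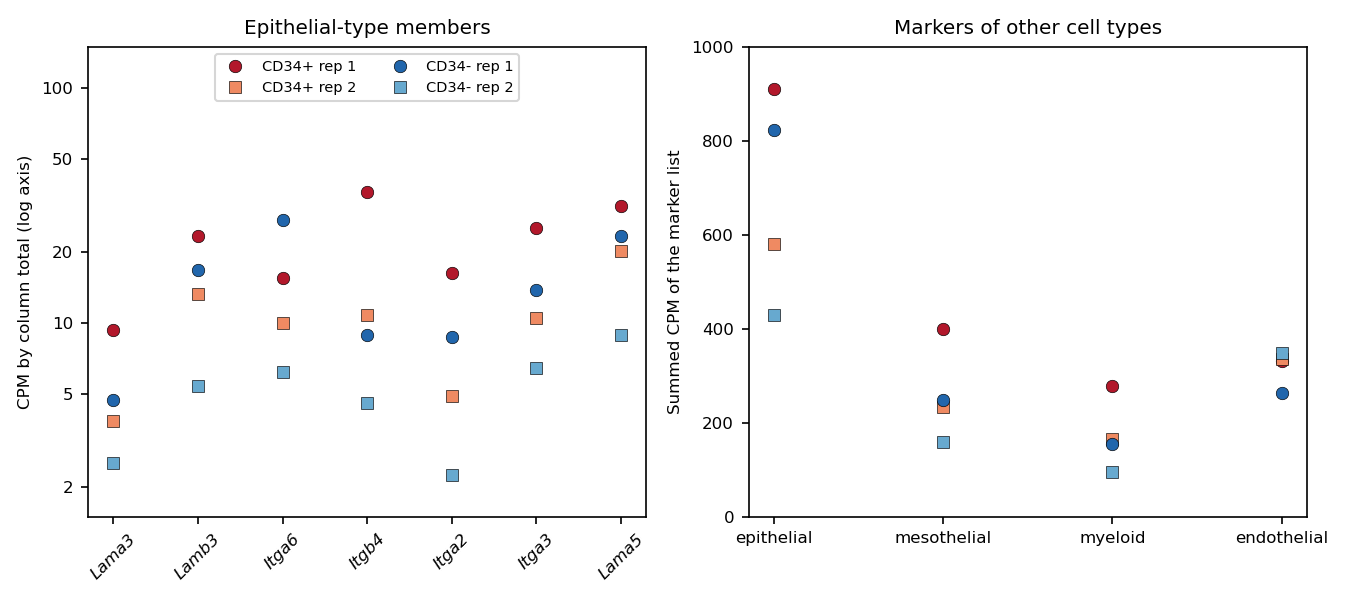
Left, CPM (log axis) of 7 genes of epithelial-type laminins and their receptors in each library; right, summed CPM of 4 marker lists. Circles (replicate 1) lie above squares (replicate 2) of the same fraction for all 7 genes and for the epithelial, mesothelial and myeloid lists. They do not for the endothelial list, whose sum is mostly Eng.

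The laminin chains that were abundant by RPKM were alpha4, alpha1 and alpha2, beta1 and beta2, and gamma1. Lama4, the alpha chain of mesenchymal and vessel laminins, was 243 and 228 CPM against 323 and 259 CPM, without overlap and within its error (log2 fold change -0.28, SE 0.26, adjusted p = 0.610, edgeR). It held between 51.1% and 66.5% of the summed RPKM of the laminin alpha chains. Lama1, known best from embryonic basement membranes, was 134 and 199.9 CPM against 103 and 196 CPM, higher in replicate 2 of each fraction. Lama2, the alpha chain of muscle and nerve laminin, overlapped, at 148 and 127 CPM against 132 and 149 CPM (log2 fold change -0.02, 95% interval from -0.65 to 0.62, edgeR). Lamc1, the gamma chain of most laminins, was 328 and 299 CPM against 323 and 279 CPM (log2 fold change 0.08, 95% interval from -0.55 to 0.72, edgeR). Lamc3 was at most 5.33 CPM and overlapped.

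By CPM, Lamb2 and Lamb1 lay in opposite directions between the fractions. Lamb2 was 428 and 344 CPM against 249.7 and 229 CPM, with no overlap (log2 fold change 0.71, SE 0.28, adjusted p = 0.290, edgeR). Lamb1, which takes its place in other trimers, was 436 and 439 CPM against 584 and 532 CPM, also without overlap (log2 fold change -0.33, SE 0.27, adjusted p = 0.560, edgeR). Within a library, the RPKM of Lamb1 was 0.991 and 1.24 times that of Lamb2 in CD34+ libraries and 2.27 and 2.26 times in CD34- libraries. This ratio needs no scaling between libraries. Its groups could not overlap once Lamb1 and Lamb2 lay apart in opposite directions, so it adds no support. With 2 libraries per group an exact permutation test cannot go below p = 0.333, so none was run. By the deposited FPKM, Lamb2 was 46.6 and 54.4 against 47.1 and 53.9, so on that scale its groups overlapped. Lamb1 was 36.5 and 51.1 against 75.6 and 79.8 FPKM, without overlap. On the log2 FPKM scale Lamb2 was at -0.0017 and Lamb1 at -0.83, where the median over all genes was -0.31.

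The linkers overlapped between the fractions apart from Nid1. Nid1, which joins laminin gamma1 to collagen IV, was 571 and 848 CPM against 861 and 864 CPM, the lowest value being that of CD34+ replicate 1. Its groups were apart by CPM of the library total but overlapped after TMM scaling, and the log2 fold change was -0.27 (SE 0.33, adjusted p = 0.700, edgeR). Nid2, the second nidogen, was 18.8 and 19.7 CPM against 23.1 and 17.5 CPM, and the RPKM of Nid1 was between 24.6 and 39.9 times that of Nid2. Hspg2, encoding the heparan sulphate proteoglycan perlecan, was 314 CPM in CD34+ replicate 1 and 130.0, 144 and 122 CPM in the other libraries. Agrn was 154 and 81.0 CPM against 113 and 155 CPM and overlapped.

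Subunits of leukocyte integrins were low. Those called CD103, CD11c and beta7 passed the filter through the CD34+ libraries, where they were higher, so nothing is read from their direction or p. Itgb7, which pairs with alpha4 or alphaE on lymphocytes and some myeloid cells, was 3.10 and 3.52 CPM against 0.757 and 0.547 CPM. These levels rest on 32, 48, 10 and 8 counts, and the log2 fold change was 2.36 (SE 0.52, adjusted p = 0.177, edgeR). Itgae (CD103), the alphaE subunit, had 12 and 16 against 4 and 2 counts (1.16 and 1.17 against 0.303 and 0.137 CPM). Itgax (CD11c), the alpha subunit of dendritic cells and macrophages, was 3.78 and 1.17 CPM against 0.605 and 0.342 CPM (log2 fold change 2.39, SE 0.78, adjusted p = 0.245, edgeR), and its change was 1.30 without CD34+ replicate 1.

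The main leukocyte beta subunit and its neutrophil and macrophage partner overlapped between the fractions. Itgb2, the beta chain of all CD11 integrins, was 5.52 and 3.66 CPM against 6.66 and 3.01 CPM (log2 fold change -0.03, 95% interval from -1.31 to 1.25, edgeR). Itgam (CD11b), of neutrophils and macrophages, was 5.04 and 1.68 CPM against 3.56 and 0.342 CPM. Itgal, Itgad and Itgb2l failed the filter and were under 1 CPM in every library. Itgal had 9 and 10 against 4 and 1 counts, Itgad 5 and 6 against 2 and 0, and Itgb2l 4 and 0 against 2 and 0. A count of 0 allows up to 3 counts, which is at most 0.220 CPM in the libraries concerned, covering counting error only. Among 10 myeloid markers all 10 had a positive fold change and 4 lay higher without overlap, against 23.4% of all genes; the leukocyte gene Ptprc was 5.52 and 3.74 CPM against 2.42 and 1.64 CPM. Of lymphocyte markers Cd3e was 19.0 CPM in CD34+ replicate 1 and at most 0.293 CPM elsewhere, while Cd3g was at most 0.293 CPM in every library. The part of leukocytes in these integrin levels was not tested.

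Itgbl1 was 40.8 and 152 CPM against 27.01 and 62.0 CPM, so that replicate 2 was the higher library in each fraction and the groups overlapped (log2 fold change 1.10, 95% interval from -0.55 to 2.74, edgeR).

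The intracellular partners of integrins showed no common direction. Of 25 tested adaptor and signalling genes, 11 were positive and 14 negative, with a median of -0.10 beside -0.02 over all genes, and 0 passed at an adjusted p of 0.05 (edgeR); without adjustment 3 lay higher and 2 lower at p of 0.05, against 9.81% and 6.65% of all genes. Fermt1, the kindlin of epithelium, was 35.8 and 19.6 CPM against 11.3 and 12.03 CPM. Tns1, encoding tensin, was 185 and 182 CPM against 135 and 103 CPM. Parvb, encoding beta-parvin, was lower at 6.49 and 5.201 CPM against 29.0 and 10.04 CPM, and Lims1, encoding PINCH, at 130.2 and 141 CPM against 215 and 202 CPM. None of these groups overlapped, and the adjusted p lay between 0.227 and 0.295 (edgeR).

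Other components of the basement membrane were split, with 11 of 21 positive and a median of 0.10, and 0 passed (edgeR; 2 higher and 2 lower at an unadjusted p of 0.05, against 9.81% and 6.65% of all genes). Smoc1, a calcium-binding basement membrane protein, was 2.42 and 2.86 CPM against 24.4 and 14.9 CPM (log2 fold change -2.85, SE 0.38, adjusted p = 0.155, edgeR). Frem1, of the Fraser complex, was 14.8 and 12.9 CPM against 35.0 and 30.9 CPM. Col4a2, a main collagen IV chain, was 1201 and 928 CPM against 2503 and 1515 CPM, and Pxdn, which crosslinks collagen IV, 138 and 86.3 CPM against 196 and 183 CPM. These 4 had the smallest p of those at 5 CPM or more and lay lower in both CD34+ libraries than in both CD34- libraries; of all 21, 6 lay higher without overlap and 7 lower, against 23.4% and 26.6% of all genes.

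Of 15 other laminin receptors and partners 6 were positive and 9 negative (median -0.08), and 0 passed (edgeR; 0 higher and 2 lower at an unadjusted p of 0.05, against 9.81% and 6.65% of all genes). The 2 were syndecans, heparan sulphate coreceptors for laminin and fibronectin: Sdc1 was 233 and 228 CPM against 1128 and 644 CPM, and Sdc2 119 and 181 CPM against 234 and 305 CPM. Sdc4 overlapped, at 244 and 394 CPM against 248 and 191 CPM. The tetraspanin gene Cd9, whose protein sits beside integrins in the membrane, was 198 and 314 CPM against 321 and 437 CPM.

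Soluble and cell-bound ligands of integrins included some of the widest differences. Of 19 tested, 9 were positive and 10 negative (median -0.27), with 0 passing after adjustment (edgeR). At an unadjusted p of 0.05, 4 lay higher and 3 lower, against 9.81% and 6.65% of all genes. Spp1, encoding osteopontin, a ligand of alpha9beta1 and alphav receptors, was 1789 and 2055 CPM against 14886 and 11884 CPM. Postn, encoding periostin, a matrix ligand of alphav receptors, was 690 and 373 CPM against 1890 and 1303 CPM. Icam1, the ligand of Itgb2 integrins, was 435 and 443 CPM against 106 and 240.2 CPM, and Vwf, a ligand of the platelet receptor and an endothelial product, 27.1 and 16.3 CPM against 3.03 and 3.42 CPM. Of 11 endothelial markers 8 lay higher without overlap and 2 lower, against 23.4% and 26.6% of all genes. Among the 8 was Pecam1 at 15.8 and 11.7 CPM against 1.51 and 3.42 CPM, and the part of endothelial cells in the level of Vwf was not tested. The ligands had adjusted p of 0.159 for Spp1 and Vwf, 0.216 for Postn and 0.257 for Icam1 (edgeR).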

How the data were processed

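RNA was measured by sequencing in 4 libraries, grouped by their titles. Purelink extraction was followed by MessageAmp amplification, per the labels' protocols, so 2 reads may be copies of 1 molecule. Bowtie2, TopHat2, HTSeq, edgeR and the build mm9 come from the submitters' processing notes. Neither annotation nor use of strand is given in the sources used here, so reads of a gene and of an overlapping or antisense partner cannot be separated. The authors deposited raw read counts per gene, RPKM values for the same genes and FPKM values, called bias-adjusted in the table's name, for 22558 genes; the deposited RPKM use scaling totals other than the count sums, so genes were ranked by RPKM only within a library, and log2 RPKM between groups served only as an alternative. Each of 3 tables used holds 14 columns that match no sample here and were not used.

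Counts were tested with edgeR 4.0.16 (R 4.3.3; quasi-likelihood F test, TMM, filterByExpr, group as the only term, two-sided, Benjamini-Hochberg at 0.05); the standard error is the fold change over the square root of F, and 95% intervals use the moderated degrees of freedom (2 residual plus 4.17). The scripts were tested on simulated counts. CPM use column totals. Alternatives were other scalings, DESeq2 1.42.0, limma 3.58.1 (voom, and log2 RPKM or FPKM with a pseudocount of 1 or 0.1), edgeR's exact test, other filters, a replicate block and leaving out each library. Log2 fold changes are printed with SE for genes with no overlap of groups and at least 1 CPM on average, up to 12 per direction, and with intervals for others; of related lists, up to 4 genes of smallest p from 5 CPM. The genes, lists and rules were chosen with earlier results of these data known. All 43 names matched a current mouse symbol; 1 of these genes counts in the totals but its own values are not reported here.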

Additional observations from a re-analysis of the deposited data

How the results depend on the processing

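With 2 libraries per group, 0 of the 40 tested genes passed the quasi-likelihood test in either direction, a count that also held under every scaling, filter and unit tried and without each library (0 to 0 genes called). It moved with the tool: 2 were called higher by DESeq2 and 2 by edgeR's exact test, and 0 lower by both. Over all genes edgeR called 0 in each direction, DESeq2 396 higher and 180 lower, the exact test 457 and 203, edgeR without a filter 194 and 137, the upper quartile, library totals and 1 CPM filter 2 and 0 each, and log2 RPKM 5 and 7 with a pseudocount of 1 or 32 and 66 with 0.1. A replicate block (the replicate number added as a term) called 39 genes higher and 23 lower over all genes and 0 and 0 of the 40 tested; the deviations of equally numbered libraries correlated at 0.24, and no label says that the number marks shared animals. Of 17 genes named by the rule and 16 alternatives each, direction turned in 3 cases: Lamb2 on log2 FPKM (-0.0017) and Itgb6 on log2 RPKM with a pseudocount of 1 (-0.013) or 0.1 (-0.032). These scales moved the median of all genes to -0.31 (FPKM), -0.31 and -0.42 (RPKM). The deposited RPKM use other scaling totals, as said above, which enter all genes of a library as a common factor. For FPKM the cause was not tested. Adjusted p of Itga5 lay between 0.0065 and 0.583 over its alternatives, of Itgb4 between 0.0463 and 0.646, and of Itgb7 between 0.0095 and 0.573. The 3 genes under 1 CPM in every library rest on at most 10 counts per library.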
